A study of Drosophila melanogaster with 90 samples.

Results

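KG00226 is a P{SUPor-P} transposon insertion in CG14438, the X-linked gene now called small ovary (sov), and females that carry it over a w1118 chromosome served as fertile controls for sov mutants in this series. Ovaries of these heterozygotes were compared with ovaries of w1118/w1118 females, so the question was what a single copy of the insertion chromosome goes with in a control ovary. The heterozygotes were y[1] P{SUPor-P}CG14438[KG00226] over w[1118], written in the labels as KG00226/w1118 (replicates 1 and 2 used here) and w1118/KG00226 (3 replicates). The comparison group was w[1118]/w[1118] (3 replicates), giving 8 of the 90 libraries of the series. The labels do not state what the written order of the alleles stands for, whether the stocks shared a genetic background, or which alleles the autosomes carried. The insertion and the background of its stock therefore cannot be told apart here. All females were 4 to 5 days old and kept at 25 °C in constant light, and each library came from a pool of 15 ovaries that the labels call a biological replicate. The remaining KG00226/w1118 library, replicate 3, was left out because of its share of transposable element reads, and the tests below were also run with it put back. Since its element reads were the reason for leaving it out, they are given as a description.

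Sov is a zinc finger protein that works with heterochromatin proteins in the ovary to keep transposable elements silent, and strong sov mutants are sterile with small ovaries. The P{SUPor-P} element carries copies of the body colour gene yellow (y) and the eye colour gene white (w), flanked by binding sites for the insulator protein Su(Hw). The w1118 chromosome carries a loss-of-function allele of w.

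Values are read counts for genes, families of transposable elements and spike-in RNAs. The 8 libraries held 3463633 to 8534756 gene counts. Replicate 3 of KG00226/w1118 held 2884610 gene counts, the fewest of these 9 libraries, with 13060 counts from transposable elements, or 0.451% of its gene and element counts. The other 5 heterozygote libraries had shares of 0.0314% to 0.0416%, and the w1118/w1118 libraries 0.0283% to 0.0398%. Levels are CPM, the count scaled to library size and composition. In each list of heterozygote values, KG00226/w1118 replicates 1 and 2 come first, followed by w1118/KG00226 replicates 1, 2 and 3.

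Of 7550 genes and element families tested, 639 were higher in the heterozygotes (8.46%) and 687 were lower (9.1%) at an adjusted p under 0.05, 17.6% in all (edgeR quasi-likelihood F test, with Benjamini-Hochberg adjustment). Changes of more than 2-fold numbered 130 upward and 132 downward. The median log2 fold change of everything tested was -0.01. With replicate 3 of KG00226/w1118 included, 303 of 7459 were higher (4.06%) and 281 lower (3.77%), 7.83% in all. A core of 115 higher and 96 lower genes kept its call in all 18 alternative settings, and none of that core was an element family. The libraries of the 2 genotypes did not overlap for 1153 features (15.3%).

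The transcript of sov itself did not differ detectably between the groups. Its level was 129, 127, 140, 142 and 142 CPM in heterozygotes, against 140, 151 and 133 CPM in w1118/w1118. The means were 136 ± 7.13 CPM (SD, n = 5) and 141 ± 9.21 CPM (SD, n = 3), and the log2 fold change was -0.07 ± 0.07 (SE, edgeR adjusted p = 0.536). The KG00226/KG00226 homozygote libraries, set beside these only for orientation, held 159, 122 and 118 CPM, and the means of 7 other heterozygote genotypes ran from 93.7 to 189 CPM. Reads over a gene that holds an insertion need not all come from transcripts that encode the whole protein, and counts per gene do not separate them.

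Among the neighbours of sov, CG3168 and lncRNA:CR43496 were lower. The sov gene lies at X:6756322-6770712 on the plus strand (release 6 coordinates), and 17 other measured genes start within 50 kb of it. Of these, 8 had enough reads to test, none rose and 2 fell, where 9.1% of all features tested fell. CG3168 (X:6720004-6739986) had 72, 95.5, 69.7, 107 and 125 CPM in heterozygotes, against 125, 184 and 190 CPM in w1118/w1118. The groups overlapped by 1 heterozygote library, and the log2 fold change was -0.84 ± 0.17 (edgeR adjusted p = 0.0049). In KG00226/KG00226 ovaries CG3168 was at 57, 56.9 and 54.6 CPM. Against w1118/KG00226 alone the adjusted p of CG3168 was 0.0529. The long noncoding RNA lncRNA:CR43496 (X:6758610-6759491) lies inside the span of sov on the minus strand. It had 3.79, 4.86, 1.16, 3.27 and 1.38 CPM in heterozygotes, against 5.97, 7.71 and 7.53 CPM in w1118/w1118. All heterozygote libraries lay below all w1118/w1118 libraries, the log2 fold change was -1.20 ± 0.28 (edgeR adjusted p = 0.0118), and homozygote libraries held 0.438, 0 and 0.273 CPM. The library kit keeps strand, but whether the counting used it is not given in the sources used here, so reads of this RNA and of sov may not be fully separated. Among the neighbours that did not pass the test, the ribosomal protein gene RpL17 had a log2 fold change of 0.15 (adjusted p = 0.522), C3G 0.14 (0.216), shf 0.10, Coq7 -0.01, pod1 -0.06 and Nf-YC -0.06.

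Of the marker genes of the insertion, y separated the genotypes and w did not. The y gene (X:356509-361245), which encodes a secreted protein of cuticle pigmentation, had 11.4, 7.92, 8.13, 17.3 and 4.98 CPM in heterozygotes, against 0.249, 0.454 and 0.145 CPM in w1118/w1118. The groups were far apart, with means of 9.93 ± 4.68 CPM (SD, n = 5) and 0.282 ± 0.157 CPM (SD, n = 3) and a log2 fold change of 5.16 ± 0.58 (edgeR adjusted p = 9.67e-05). The homozygote libraries held 14.7, 19.9 and 26.5 CPM, and none of the 7 other heterozygote genotypes averaged above 0.535 CPM. Besides being a marker of the insertion, y also met the rule for the 15 largest rises given below. Counts per gene cannot say whether these reads came from the copy in the P element or from the resident gene. The w gene rose less, with a log2 fold change of 1.25 ± 0.40 (edgeR adjusted p = 0.0478), and with replicate 3 included its adjusted p was 0.0719. Its libraries held 7.38, 4.99, 4.36, 3.45 and 2.77 CPM in heterozygotes, against 3.36, 0.68 and 1.3 CPM in w1118/w1118, so the groups overlapped. The homozygotes averaged 4.99 CPM of w, close to the 4.59 CPM mean of the heterozygotes, and the other heterozygote genotypes ran from 0.662 to 29.2 CPM, the NP6070 and sov2 heterozygotes being at 18.3 CPM or more.

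Several genes were near silent in w1118/w1118 ovaries and plainly present in every heterozygote library. The 15 genes with the largest rises were chosen with no overlap between the groups. Among them, 4 had no read at all in w1118/w1118. All 15 passed the test in each of the 18 alternative settings, which reuse these libraries. Hpd (3L:20438166-20439872), which encodes the tyrosine-degrading enzyme 4-hydroxyphenylpyruvate dioxygenase, had 19.3, 19.1, 18.3, 20.9 and 29.6 CPM in heterozygotes, against 0.249, 0 and 0 CPM in w1118/w1118. Its log2 fold change was 7.39 ± 0.42 (edgeR adjusted p = 3.72e-07). The homozygotes held 34.6, 44.3 and 43.4 CPM, and no other heterozygote genotype averaged above 0.186 CPM. The G protein-coupled receptor gene mthl8 (3L:22428-26308) had 8.57, 5.62, 4.64, 5.09 and 3.6 CPM in heterozygotes and no read in w1118/w1118, which makes it at least 35.5-fold higher, taking 3 counts over the w1118/w1118 group as the floor (a limit of counting error only). The KG00226/KG00226 libraries held 19.1, 16.4 and 18.6 CPM of mthl8. By the same measure jtb (2R:16432244-16433183) was at least 27.5-fold higher, the cell surface gene dpr1 at least 13.7-fold and CR44383 at least 13.2-fold.

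Other large rises were in genes with some expression in w1118/w1118. Culd (3L:8352355-8356296), a transmembrane protein known from photoreceptors, was the most even of them, with 53.8, 55.1, 60.1, 56 and 53.1 CPM in heterozygotes, against 2.86, 2.72 and 2.9 CPM in w1118/w1118. Its log2 fold change was 4.28 ± 0.13 (edgeR adjusted p = 3.65e-10), and the homozygotes held 79.1, 102 and 85.7 CPM. The noncoding RNA lncRNA:CR40469 (X:122493-122706) was the most abundant, with 377, 876, 612, 292 and 330 CPM in heterozygotes, against 13.2, 3.17 and 2.6 CPM in w1118/w1118. It varied more within each genotype than Culd did, and its log2 fold change was 6.198 ± 0.48 (edgeR adjusted p = 4.67e-06). Besides y, the remaining members of the 15 were sordd2 (6.17 on the log2 scale), CG8851 (5.19), CG14692 (4.76), the antisense RNA asRNA:CR45822 (4.28), CG10508 (4.09), CG9380 (4.00) and the intraflagellar transport gene Oseg5 (3.99). CR44383 ends at X:15796897 and sordd2 starts at X:15796908 on the opposite strand, so their rises may not be independent, and the antisense RNA has the same uncertainty about strand as lncRNA:CR43496.

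**Figure D1:**
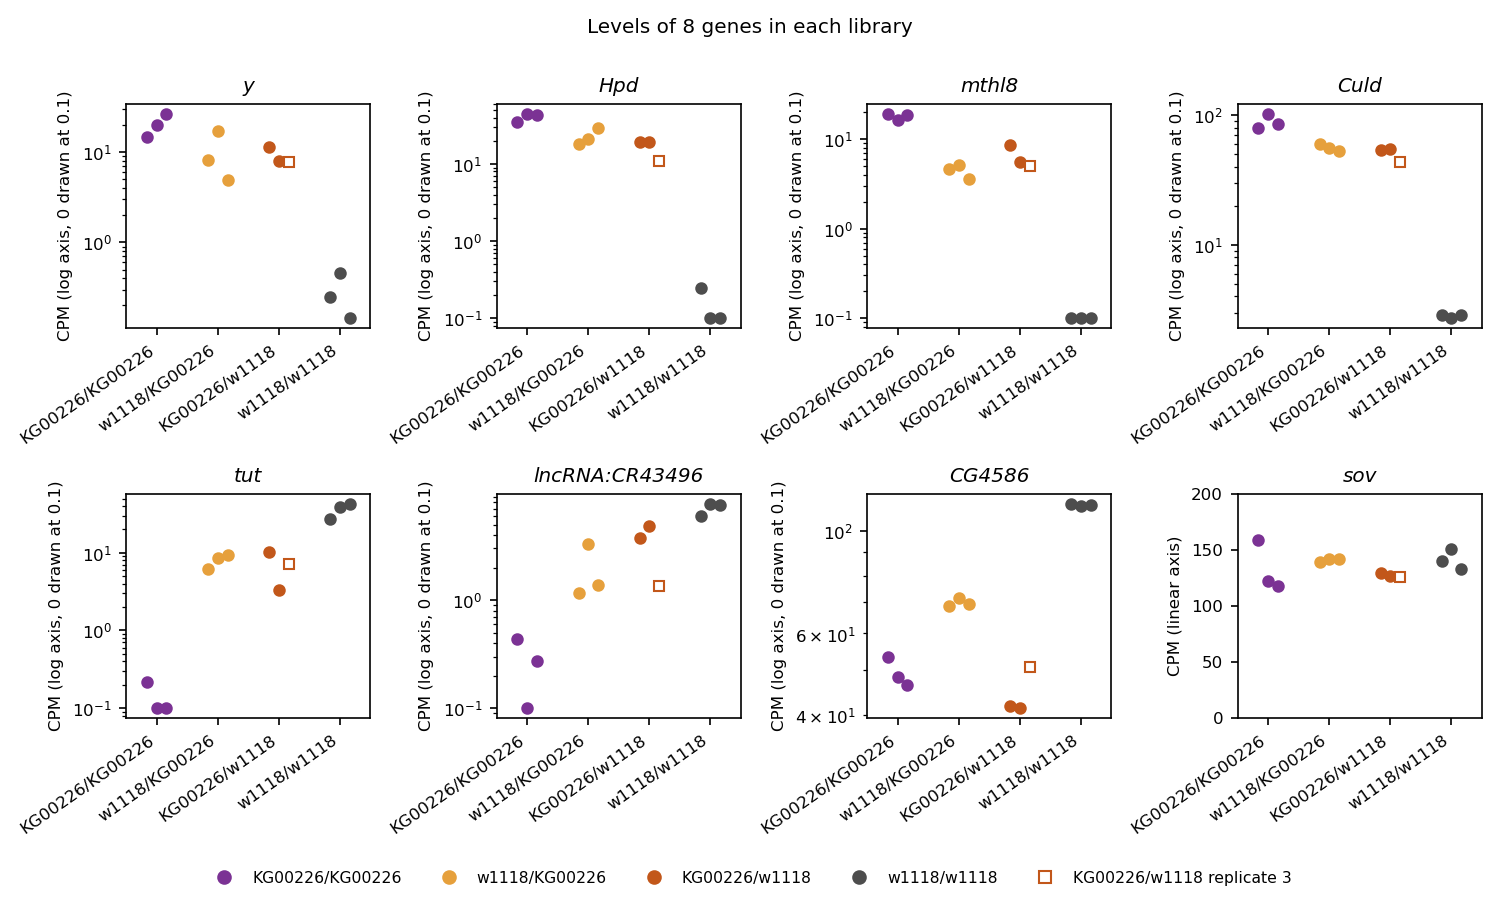
Level of 8 genes in each library, in CPM on log axes (0 drawn at 0.1), except sov on a linear axis; each point is a library, and the open square is replicate 3 of KG00226/w1118. For y, Hpd, mthl8 and Culd every heterozygote library lies above every w1118/w1118 library, for tut, lncRNA:CR43496 and CG4586 every heterozygote library lies below, and sov overlaps. Hpd, mthl8, Culd and tut are among the genes chosen for having no overlap between the groups, and y, a marker of the insertion, also met that rule.

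The largest falls were of mixed kinds, and fewer of them were stable. Of the 15 genes with the largest falls, also chosen with no overlap between the groups, 4 passed the test in every alternative setting. With replicate 3 included, 14 of the 15 could be tested and 10 were called lower. The antimicrobial peptide gene AttB had no read in any heterozygote library, against 5.35, 0.227 and 5.5 CPM in w1118/w1118, at least 31.3-fold lower by the 3-count floor. Another antimicrobial peptide gene, CecA1, had 0.598, 0.128, 0, 0 and 0 CPM in heterozygotes, against 2.24, 0.68 and 3.04 CPM in w1118/w1118 (edgeR adjusted p = 0.0049). The third immune gene called was the NF-kappaB factor Rel, which rose slightly (log2 fold change 0.26 ± 0.08, adjusted p = 0.0336), so 1 immune gene was higher and 2 lower of 7 tested, with a list median of -0.06. None of the 5 immune genes tested with replicate 3 included was called.

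The gene tut (3L:8209577-8210743), an RNA-binding partner of Bam in the male germline, had 10.2, 3.32, 6.1, 8.54 and 9.41 CPM in heterozygotes, against 26.9, 39.2 and 42.3 CPM in w1118/w1118. Its log2 fold change was -2.33 ± 0.25 (edgeR adjusted p = 7.39e-05), and the homozygotes held 0.219, 0 and 0 CPM. The UDP-glycosyltransferase gene Ugt305A1 also fell to near 0, with at most 0.545 CPM in a heterozygote library, against 3.11, 2.04 and 3.04 CPM in w1118/w1118, and no read in the homozygotes (log2 fold change -2.92 ± 0.48, adjusted p = 0.0014). Obp99b, an odorant-binding protein that also serves as a fat body marker, had a log2 fold change of -2.84 ± 0.44 (edgeR adjusted p = 0.000983), comm2 of the commissureless family -2.38 ± 0.28 (0.000136), and CR40005 -2.31 ± 0.46 (0.0049). Of the remaining genes among the 15, CG8646 had -2.66, CG11147 -2.44 and CG7365 -2.05. Hsp70Ba, Hsp70Aa, Fcp3C and CG14309, given below, also met the rule for the 15 largest falls.

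In the heat shock list, 5 of 13 tested genes were lower and none higher, with a list median of -0.37, where 9.1% of all features were lower. The count lower was 3 with replicate 3 included, 1 for w1118/KG00226 alone against w1118/w1118, and 5 for KG00226/w1118 alone. Of all 7550 features, 206 were lower for w1118/KG00226 alone and 1027 for KG00226/w1118 alone. The inducible chaperone genes Hsp70Ba (-3.32 ± 0.74, edgeR adjusted p = 0.0084) and Hsp70Aa (-2.26 ± 0.48, adjusted p = 0.00648) are near-identical copies that may share reads. Hsp70Ba was at 1.4, 1.41, 1.74, 0.909 and 1.38 CPM in heterozygotes, against 3.48, 35.8 and 4.49 CPM in w1118/w1118, where replicate 2 carried most of the difference. The library left out had 22.4 CPM, and with it included the adjusted p of Hsp70Ba was 0.175. Moderate falls were seen in Hsf, the heat shock transcription factor (-0.37 ± 0.08, adjusted p = 0.00634), the small chaperone Hsp26 (-0.38, 0.0252) and the endoplasmic reticulum chaperone Hsc70-3 (-0.37, 0.0242).

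Many vitelline membrane genes were lower, in either order of the heterozygote. These genes encode the inner layer of the eggshell, which follicle cells secrete around the growing oocyte before the outer chorion is laid down. Of 14 genes tested, 11 were lower and none was higher, with a median log2 fold change of -1.16, where 9.1% of all features were lower. In the fit that included replicate 3, 7 were lower and none higher, with a median of -1.003. The summed level of the list was 8473, 13120, 12380, 9392 and 9733 CPM in heterozygotes, against 25570, 17630 and 25610 CPM in w1118/w1118. The groups did not overlap, and replicate 3 of KG00226/w1118, at 14580 CPM, also lay below all w1118/w1118 libraries. In ovary pools, fewer follicle cells of the secreting stage and less RNA per cell cannot be told apart.

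Among the individual members, Vm32E (2L:11171167-11171665) had 96.7, 118, 161, 182 and 169 CPM in heterozygotes, against 574, 358 and 618 CPM in w1118/w1118. Its log2 fold change was -1.93 ± 0.14 (edgeR adjusted p = 3.29e-06), and it passed in all 18 alternative settings. Vm26Ac fell by 2.03 ± 0.22 (adjusted p = 7.71e-05), and the abundant Vm26Aa (-1.37 ± 0.22, 0.00119), Vm34Ca (-1.47 ± 0.21, 0.0006), Vml (-1.44 ± 0.18, 0.000201) and psd (-1.18 ± 0.19, 0.00115) fell together. Vm26Ab had -0.76 but missed the threshold (adjusted p = 0.077). The genes fs(1)M3 and fs(1)N, whose proteins also act in embryonic patterning, had 0.19 and -0.02 on the log2 scale and did not pass. Fcp3C, a follicle cell protein, had 15.2, 5.75, 70, 107 and 88 CPM in heterozygotes, against 204.9, 154 and 202 CPM in w1118/w1118 (-2.67 ± 0.19, edgeR adjusted p = 2.94e-06). The library left out had 136 CPM of Fcp3C, and with it included the adjusted p was 0.123. CG14309 behaved likewise, with 72.8, 31.9, 222, 478 and 417 CPM in heterozygotes, against 866, 682 and 971 CPM in w1118/w1118 (-2.60 ± 0.25, edgeR adjusted p = 3.02e-05; 0.14 with replicate 3), as did CG14187 (-2.55 ± 0.22, 8.73e-06; 0.0653 with replicate 3).

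Chorion genes, which make the outer eggshell late in follicle cell life, were lower mainly in part of the heterozygote libraries. Of 20 genes tested, 10 were lower and none higher, with a median of -0.99, where 9.1% of all features were lower. The summed level was 20650, 20570, 20940, 42250 and 46460 CPM in heterozygotes, against 38760, 49680 and 40360 CPM in w1118/w1118. Both KG00226/w1118 libraries and replicate 1 of w1118/KG00226 were low, whereas replicates 2 and 3 of w1118/KG00226 lay within the w1118/w1118 range. With replicate 3 of KG00226/w1118 included, 4 were lower and none higher. The X-linked chorion genes Cp36 (-1.17 ± 0.25, edgeR adjusted p = 0.0062), Cp38 (-1.12 ± 0.27, 0.0132), Cp7Fb (-1.39 ± 0.30, 0.00654) and the yellow-family genes yellow-g (-1.40 ± 0.22, 0.00105) and yellow-g2 (-1.39 ± 0.23, 0.00136) were among the 10. The genes Cp15, Cp16, Cp18 and Cp19 of the cluster on the third chromosome had -0.12, -0.24, -0.17 and -0.31 and did not pass.

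The yolk list was mixed. Yolk protein gene Yp3 fell, with 1211, 1542, 1172, 612 and 636 CPM in heterozygotes, against 2403, 2140 and 2937 CPM in w1118/w1118. No library overlapped, the log2 fold change was -1.24 ± 0.20 (edgeR adjusted p = 0.0012), and the call held in all 18 alternative settings. The yolk receptor chaperone boca also fell (-0.35, 0.0366), and the lipid carrier apolpp rose (0.95 ± 0.18, 0.00373), giving 1 higher and 2 lower of 6, with a median of -0.29. Including replicate 3 left none higher and 1 lower. The ecdysone list holds the steroid hormone signalling genes that time egg chamber growth. It had 6 lower and none higher of 17, where 9.1% of all features were lower, with a median of -0.13. The nuclear receptor gene ftz-f1 (-0.61 ± 0.09, adjusted p = 0.0006) led it, with Hr4 (-1.04 ± 0.25, 0.012), Eip78C (-1.51 ± 0.31, 0.00602) and Hr39 (-0.33 ± 0.08, 0.0144). That number was 3 in the fit with replicate 3.

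**Figure D2:**
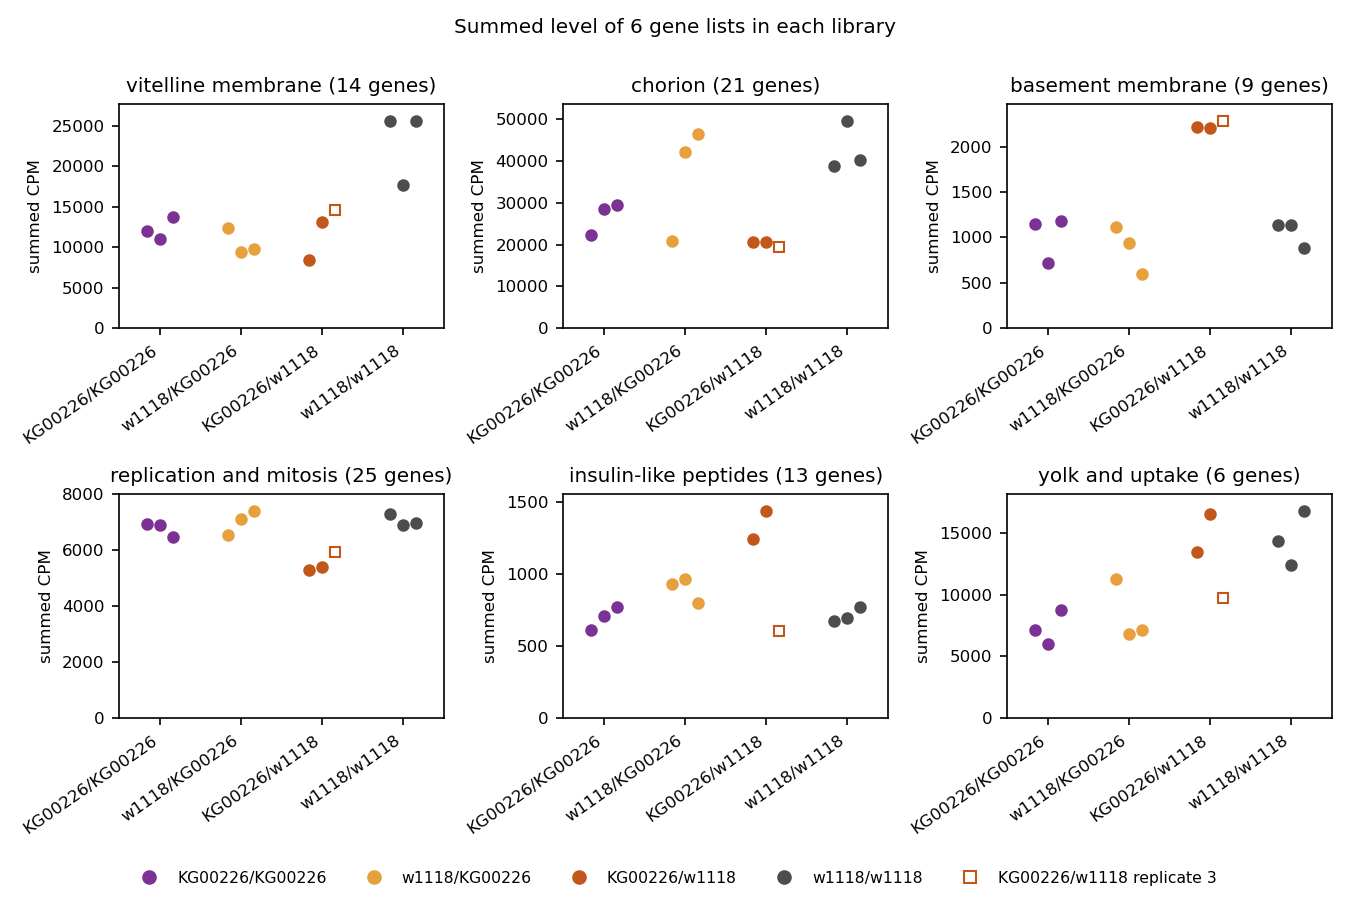
Summed CPM of 6 gene lists in each library, on linear axes from 0; each point is a library, and the open square is replicate 3 of KG00226/w1118. All heterozygote libraries lie below w1118/w1118 for the vitelline membrane list, while for the chorion, basement membrane, and replication and mitosis lists the KG00226/w1118 libraries stand apart from at least 2 of the 3 w1118/KG00226 libraries.

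Genes of the piRNA pathway, which makes small RNAs against transposable elements in the germline and its supporting follicle cells, moved in both directions. Of 31 tested, 5 were higher and 2 lower, with a median of 0.03, so the share higher was above and the share lower below that of all genes tested. The Piwi-family gene aub had 187, 175, 160, 144 and 130 CPM in heterozygotes, against 106, 108 and 93.2 CPM in w1118/w1118. All heterozygote libraries were above, the log2 fold change was 0.66 ± 0.09 (edgeR adjusted p = 0.00031), and the call held in all 18 alternative settings. Its nuclear relative piwi had 293, 308, 302, 258 and 248 CPM in heterozygotes, against 203, 221 and 214 CPM in w1118/w1118 (0.42 ± 0.08, edgeR adjusted p = 0.00489). The RNA helicase gene armi (0.33, 0.00789), papi (0.46, 0.0193) and qin (0.52, 0.0133), both Tudor proteins of piRNA processing, were the other higher genes. Lower were moon (-0.63 ± 0.13, 0.00611) and rhi (-0.42 ± 0.11, 0.0178), whose proteins act together in transcribing germline piRNA clusters. Moon had 13.4, 14.2, 11.9, 12.5 and 11.6 CPM in heterozygotes, against 17.2, 20.9 and 22.4 CPM in w1118/w1118, and the homozygotes held 6.79, 5.1 and 5.46 CPM. With replicate 3 included, 3 of the list were higher and 2 lower.

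Heterochromatin and insulator protein genes were called about as often as the 17.6% of all features. Of 27 heterochromatin genes, 2 were higher and 2 lower (median -0.11), and of 12 insulator genes, 1 was higher and 1 lower (median -0.09). With replicate 3 included, the heterochromatin list had 2 higher and none lower. Su(Hw), the insulator protein whose binding sites the P element carries, is encoded by su(Hw), which stands in both lists. Its level was 102, 94.8, 92.3, 116 and 115 CPM in heterozygotes, against 77.3, 81.2 and 75.3 CPM in w1118/w1118 (log2 fold change 0.41 ± 0.09, edgeR adjusted p = 0.00701), and this held in all 18 alternative settings. The means of the 7 other heterozygote genotypes were 93 to 106 CPM, and the difference from them was 0.05 on the log2 scale (adjusted p = 0.491). The other called genes were vig (0.62 ± 0.13, 0.00654), Su(var)3-7 (-0.40 ± 0.09, 0.00866), which binds the heterochromatin protein HP1, HP5 (-0.36 ± 0.07, 0.00602) and the boundary factor Elba2 (-0.35 ± 0.08, 0.0101).

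Germline and oocyte genes were shifted by modest amounts, and their counts stand beside 8.46% higher and 9.1% lower over all features. Early germline genes had 1 higher and 4 lower of 14 (median -0.16), and with replicate 3 included 1 was higher and 1 lower. The differentiation factor bam had 21.3, 18.7, 23.8, 37.8 and 45.1 CPM in heterozygotes, against 44.3, 39.5 and 47 CPM in w1118/w1118 (-0.71 ± 0.15, edgeR adjusted p = 0.00683), with overlap in w1118/KG00226 replicate 3. Rbfox1, a splicing and translation regulator of cyst differentiation, rose (0.43 ± 0.11, 0.0174). Oocyte and maternal genes had 2 higher and 6 lower of 23 (median -0.11), or 1 higher and 4 lower with replicate 3. The bicoid-localising gene exu had 410, 347, 413, 449 and 467 CPM in heterozygotes, against 602, 596 and 623 CPM in w1118/w1118 (-0.57 ± 0.09, edgeR adjusted p = 0.00117; called in all 18 alternative settings). The protease gene ndl, which follicle cells make for embryonic patterning, fell by 1.13 ± 0.16 (adjusted p = 0.0005), tor by 0.38 ± 0.09 (0.0124), and the translation regulator orb rose by 0.58 ± 0.11 (0.00399). In the sex determination list, 0 of 14 genes passed in either direction. The testis-enriched list had 3 genes with enough reads, and bol (-1.03 ± 0.14, 0.0005), a meiotic RNA-binding protein, and the meiotic phosphatase twe (-0.32 ± 0.09, 0.0209) were lower, of which 1 was called with replicate 3.

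Meiosis genes had 5 lower and none higher of 18 (median -0.11), where 9.1% of all features were lower. DNA replication and mitosis genes had 5 lower and none higher of 25 (median -0.23). For w1118/KG00226 alone neither list had a lower gene (medians 0.08 and 0.05), and for KG00226/w1118 alone 9 and 17 were lower. Of all 7550 features, 206 were lower for w1118/KG00226 alone and 1027 for KG00226/w1118 alone. With replicate 3 included, 0 meiosis genes and 1 replication and mitosis gene were lower. The replication regulator CycE had 161, 150, 233, 302 and 322 CPM in heterozygotes, against 288, 280 and 255 CPM in w1118/w1118 (-0.38 ± 0.10, edgeR adjusted p = 0.0197). Only the KG00226/w1118 libraries and replicate 1 of w1118/KG00226 were below the w1118/w1118 range.

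The insulin list, of insulin-like peptides, the binding protein ImpL2 and signalling genes, stood on the higher side. Of 8 tested, 5 were higher and none lower (median 0.48), where 8.46% of all features were higher. With replicate 3 included 1 was higher. The 5 were Ilp6, Ilp7, Ilp8, ImpL2 and the signalling gene chico. Ilp5 had too few reads to test, with at most 0.277 CPM in heterozygotes, against 1.24, 1.59 and 0.868 CPM in w1118/w1118. Ilp6, the growth factor best known from the fat body, had 25.1, 39.5, 31.9, 23.8 and 28.2 CPM in heterozygotes, against 13.9, 15.7 and 10.1 CPM in w1118/w1118. It did not overlap between the groups, had a log2 fold change of 1.21 ± 0.18 (edgeR adjusted p = 0.000805) and was called in all 18 alternative settings. Ilp8, a relaxin-like peptide made by maturing follicle cells, had 608, 630, 357, 399 and 304 CPM in heterozygotes, against 238, 172 and 290 CPM in w1118/w1118 (1.00 ± 0.14, 0.0006). The library left out held 111 CPM, below the other heterozygote and w1118/w1118 libraries, and with it the adjusted p of Ilp8 was 0.23. Ilp7 was similar, with 60, 66.6, 25, 48.9 and 37.9 CPM in heterozygotes, 9.16 CPM in the library left out, and 24.6, 19.5 and 24.5 CPM in w1118/w1118 (1.09 ± 0.17, 0.000884). Homozygotes held 19.5, 22.3 and 23.5 CPM of Ilp6, 107, 200 and 220.5 CPM of Ilp8, and 5.92, 19.9 and 14.2 CPM of Ilp7. The octopamine receptor gene Oamb, used by mature follicle cells at ovulation, showed the same low library, with 110, 103, 49.1, 86.7 and 71.4 CPM in heterozygotes, 18.6 CPM in the library left out, and 39.7, 49.4 and 54.7 CPM in w1118/w1118 (0.85 ± 0.15, 0.00237).

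Stress, defence and detoxification lists were small, and their counts stand beside 8.46% higher and 9.1% lower over all features. Antiviral RNAi genes had 3 higher of 9 (AGO2 0.26, Dcr-2 0.24 and pst 0.37 on the log2 scale) and none with replicate 3 included. Detoxification genes had 3 higher and 3 lower of 24, among them the cytochrome P450 gene Cyp9b2 (-1.89 ± 0.27, edgeR adjusted p = 0.000541) and the glutathione transferase gene GstE1 (0.67 ± 0.11, 0.00166). With replicate 3, 1 was higher and 2 lower. Apoptosis and stress genes had 2 higher and 1 lower of 14, the cell death inducer hid (0.43 ± 0.10, 0.0134) and the stress factor Xrp1 (0.56 ± 0.14, 0.0135) being higher and the caspase gene Dronc (-0.45 ± 0.12, 0.0229) lower, or 1 higher and none lower with replicate 3. JAK-STAT and BMP genes had 1 higher, the feedback inhibitor Socs36E (0.56, 0.0183), and 1 lower, the inhibitor Dad (-0.50, 0.0384), of 13, and none was lower with replicate 3. Follicle cell and ovarian soma genes had 1 higher, the transcription factor pnt (0.58 ± 0.13, 0.00804), and 1 lower, Tsp96F (-0.76 ± 0.13, 0.00172), of 21.

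Markers of other tissues that a dissected ovary can carry were read alongside, where 8.46% of all features were higher and 9.1% lower. None of 18 muscle genes and none of 4 neuronal genes was called, and the summed muscle level was 973, 969, 773, 926 and 836 CPM in heterozygotes, against 865, 958 and 1011 CPM in w1118/w1118. The fat body list had 4 higher and 1 lower of 6 tested, and 1 higher and 1 lower with replicate 3 included, with sums of 742, 685, 585, 502 and 488 CPM in heterozygotes, against 561, 518 and 499 CPM in w1118/w1118. The called fat body genes were Ilp6, Obp99a, Lpin, apolpp and Obp99b, while of the larval serum and fat body protein genes Fbp1, Fbp2, Lsp1alpha and Lsp2 had no read in these 9 libraries. Lsp1gamma had reads in 1 library, w1118/KG00226 replicate 2 (0.182 CPM), and Lsp1beta in w1118/w1118 replicates 1 and 2 (0.498 and 0.454 CPM). Hemocyte genes had 1 higher (the ferritin gene Fer2LCH, 0.49) and 1 lower (srp, -0.51) of 5, with sums of 864, 997, 862, 908 and 809 CPM in heterozygotes, against 680, 799 and 755 CPM in w1118/w1118. Neither call was made with replicate 3 included. The hemocyte-defining genes He, eater and NimC1 were at 0.364 CPM or less in each library, while Pxn was at 5.81 to 12.8 CPM and Hml at 0.554 to 3.19 CPM in the 8 libraries, neither of which passed the test (-0.22, adjusted p = 0.493, and -0.06, 0.944). Gut genes had 1 lower of 3 (LManII, -0.36). Gut protease reads sat mainly in replicate 1 of w1118/KG00226, where Jon65Aiv reached 58.9 CPM. The part of these tissues in the results above was not tested.

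The share of reads from transposable elements did not pass the test with all 8 libraries, and passed only when w1118/w1118 replicate 3 was left out. The share averaged 0.038% ± 0.00405 (SD, n = 5) in heterozygotes and 0.0328% ± 0.00615 (SD, n = 3) in w1118/w1118, a log2 difference of 0.22 (exact two-sided permutation p = 0.232, where the smallest possible is 0.0179). With replicate 3 of KG00226/w1118 included the difference was 0.82 (exact permutation p = 0.405). That library was left out because of this share, so the test without it cannot decide whether the share differs. Without w1118/w1118 replicate 3, which had the highest share of its group, the difference was 0.37 (exact permutation p = 0.0476, the smallest possible there). Element counts per ERCC spike-in count, which are not a share, differed by 0.94 (exact permutation p = 0.0357). That test did not take the ERCC pool, 78A or 78B, into account. With pool 78B, heterozygotes had 274, 341 and 392 element counts per 100 ERCC counts, against 296 in w1118/w1118 replicate 3. With pool 78A, they had 319 and 304, against 172 and 94.3 in w1118/w1118. Gene counts per ERCC count were 7161 to 12459 in heterozygotes and 3113 to 7423 in w1118/w1118. Of 147 element families, 137 had a read in the 8 libraries and 45 had enough to test. Of these, 4 were higher and 1 lower, with a median log2 fold change of 0.19, where 8.46% of all features were higher and 9.1% lower. These family tests also lack the library left out for its element reads. Among 43 families tested with replicate 3 included, 1 was higher and 1 lower. How reads that match many copies were assigned is not given in the sources used here, so related families may share reads.

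The higher families were scarce except for DNAREP1_DM, a short repeat related to Helitron elements. It had 73.2, 88.1, 84.8, 58.2 and 64.5 CPM in heterozygotes, against 41.7, 45.6 and 56.6 CPM in w1118/w1118 (log2 fold change 0.64 ± 0.14, edgeR adjusted p = 0.00658; 0.0155 with replicate 3). The retrotransposon MDG3 had 1.4, 1.79, 1.45, 2.18 and 2.21 CPM in heterozygotes, against 0.622, 0.227 and 0.579 CPM in w1118/w1118 (1.77 ± 0.45, edgeR adjusted p = 0.0167), and MAX had 1.53 ± 0.37 (0.0138). R1_DM, which inserts in ribosomal RNA genes, was the family that fell, with 1.2, 0.639, 0.871, 1.82 and 1.38 CPM in heterozygotes, against 4.48, 4.99 and 2.9 CPM in w1118/w1118 (-1.85 ± 0.36, edgeR adjusted p = 0.00399). Both MDG3 and R1_DM separated the groups in the 8 libraries, at levels of a few CPM. Replicate 3 of KG00226/w1118 held 3.05 CPM of R1_DM, above the lowest w1118/w1118 library.

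Telomeric retrotransposons, which maintain chromosome ends in flies and are held down by the piRNA pathway, gave 1 call among 3 families. TAHRE had 14, 9.33, 13.4, 7.09 and 9.69 CPM in heterozygotes, against 8.34, 3.63 and 4.49 CPM in w1118/w1118 (0.89 ± 0.29, edgeR adjusted p = 0.0494). It lost the call with replicate 3 (adjusted p = 0.155). HETA had 35.3, 21.6, 14.5, 14 and 17.2 CPM in heterozygotes, against 28.7, 12 and 12.9 CPM in w1118/w1118 (0.15 ± 0.26, adjusted p = 0.719), and TART did not pass either (1.05 ± 0.46, adjusted p = 0.128). For scale, the homozygotes held 2599, 1457 and 1088 CPM of HETA and 425, 210 and 151 CPM of TAHRE. Gypsy had too few reads to test, and no family in the files carries the plain name of the P element.

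Replicate 3 of KG00226/w1118 had another element profile altogether. HETA stood at 1490 CPM, Gypsy12 at 1173 CPM against 5.09 to 17.3 CPM in the other heterozygote libraries, MDG3 at 185 CPM, TART at 106 CPM and TAHRE at 104 CPM. HETA and Gypsy12 together made up 60.1% of its element counts. Of 115 families with more than 3 reads in the other heterozygotes, 50 were at least 5-fold higher in this library than in their mean. Its y level was 7.8 CPM and its sov level 126 CPM, and its Culd level, 43.8 CPM, was below the other heterozygotes but far above w1118/w1118.

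**Figure D3:**
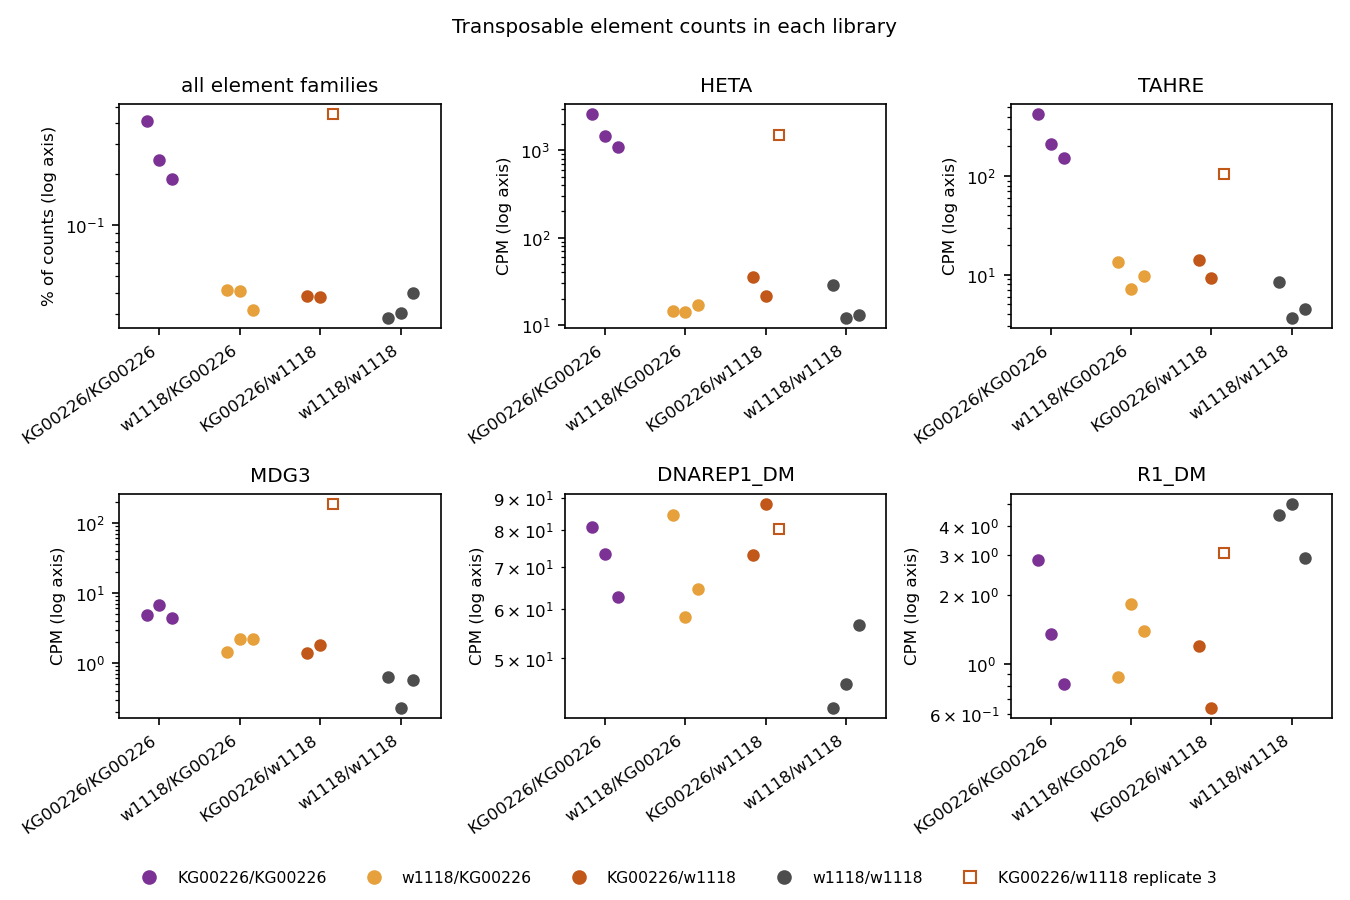
Share of gene and element counts from all transposable element families (%), and levels of 5 families (CPM), in each library on log axes; each point is a library and the open square is replicate 3 of KG00226/w1118. That library has 0.451% element counts and lies far above the other heterozygotes for the share, HETA, TAHRE and MDG3, but among them for DNAREP1_DM.

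The heterozygotes written in the 2 orders were not alike. Tested directly, 512 of 7550 features were higher in w1118/KG00226 than in KG00226/w1118 (6.78%) and 388 were lower (5.14%), 11.9% in all. Putting replicate 3 of KG00226/w1118 back left 68 of 7459 higher (0.912%) and 93 lower (1.25%), 2.16% in all. Of all calls, 20 higher and 33 lower genes kept theirs in all 14 alternative settings. The comparison rests on 3 libraries against 2.

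The clearest group was the basement membrane, the sheet of collagen IV, laminin and perlecan around egg chambers. Of 8 genes tested, 6 were lower in w1118/KG00226 and none higher (median -1.31), and 6 were also lower with replicate 3 included (median -1.34). Over all features 5.14% were lower, or 1.25% with replicate 3. LanA, a laminin subunit, had 145, 125 and 83.9 CPM in w1118/KG00226, against 319 and 321 CPM in KG00226/w1118, with 258 CPM in replicate 3, and differed by -1.44 ± 0.16 (edgeR adjusted p = 0.000452). The other laminin genes LanB1 (-1.34) and LanB2 (-1.57), the perlecan gene trol (-1.28) and the collagen IV genes vkg (-1.47 ± 0.26, adjusted p = 0.00458) and Col4a1 (-1.26, 0.00572) went with it. The w1118/w1118 libraries held 128, 146 and 121 CPM of LanA, so the KG00226/w1118 ovaries were the high ones. In the comparison of all heterozygotes with w1118/w1118, LanA, LanB1, LanB2 and trol were called higher (1 of the list with replicate 3), whereas with w1118/KG00226 alone none of the 8 was called and the median was -0.26, against 1.05 with KG00226/w1118 alone. Of all features 8.46% were higher in the comparison of all heterozygotes. With w1118/KG00226 alone, 161 of 7550 were higher and 206 lower. Basement membrane genes are also expressed by hemocytes and fat body, whose levels are given above, and the part of those cells was not tested.

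Replication and eggshell genes went the other way. Over all features 6.78% were higher in w1118/KG00226 and 5.14% lower, or 0.912% and 1.25% with replicate 3. Of 25 replication and mitosis genes, 18 were higher in w1118/KG00226 and none lower (median 0.53), 7 with replicate 3 included. CycE differed by 0.89 ± 0.13 (edgeR adjusted p = 0.00186), the mitotic regulator fzy by 0.86 ± 0.13 (0.00186) and the origin recognition subunit Orc2 by 0.86 ± 0.15 (0.00373). Of 20 chorion genes, 10 were higher in w1118/KG00226 and none lower (median 1.18), and 1 with replicate 3 included. Meiosis genes had 7 higher and none lower of 18, and heterochromatin genes 7 higher and none lower of 27. With replicate 3 included, 3 meiosis genes and 0 heterochromatin genes were higher. Set against w1118/w1118, 206 of 7550 features were lower for w1118/KG00226 alone and 1027 for KG00226/w1118 alone. The chorion median was -0.28 for w1118/KG00226 alone with no gene called, and -1.50 for KG00226/w1118 alone with 11 lower. The vitelline membrane median was -1.11 with 7 lower for w1118/KG00226 alone, and -1.32 with 11 lower for KG00226/w1118 alone, so that list was low in either order.

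Of single genes, those with the lowest p in the direct test included Fcp3C (3.20 ± 0.29, edgeR adjusted p = 0.000135), Jhbp5 of the juvenile hormone binding protein family (2.47, 0.000135), CG14187 (3.14, 0.000452) and CG14309 (2.86, 0.000898), all higher in w1118/KG00226. Replicate 3 of KG00226/w1118 was unlike replicates 1 and 2 for these, and with it the adjusted p of Fcp3C was 0.475. CG4586 (X:6969918-6972265), on the same chromosome as sov, had 68.8, 71.6 and 69.5 CPM in w1118/KG00226, 41.9 and 41.4 CPM in KG00226/w1118 and 114, 113 and 114 CPM in w1118/w1118. It was thus lower in all heterozygotes (-1.07 ± 0.07, edgeR adjusted p = 1.19e-06) and differed between the orders (0.76 ± 0.10, 0.000969). Lower in w1118/KG00226 were Stt3B, a catalytic subunit of the oligosaccharyltransferase, with 108, 98.5 and 91.6 CPM against 194 and 206 CPM in KG00226/w1118 (-1.01 ± 0.09, edgeR adjusted p = 0.000135), and Iris, a gene derived from a retroviral envelope, with 30.5, 24.4 and 20.8 CPM against 68.4 and 73.6 CPM (-1.50, 0.000148). Replicate 3 of KG00226/w1118, at 180 CPM of Stt3B and 51.6 CPM of Iris, stayed on the side of its genotype.

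**Figure D4:**
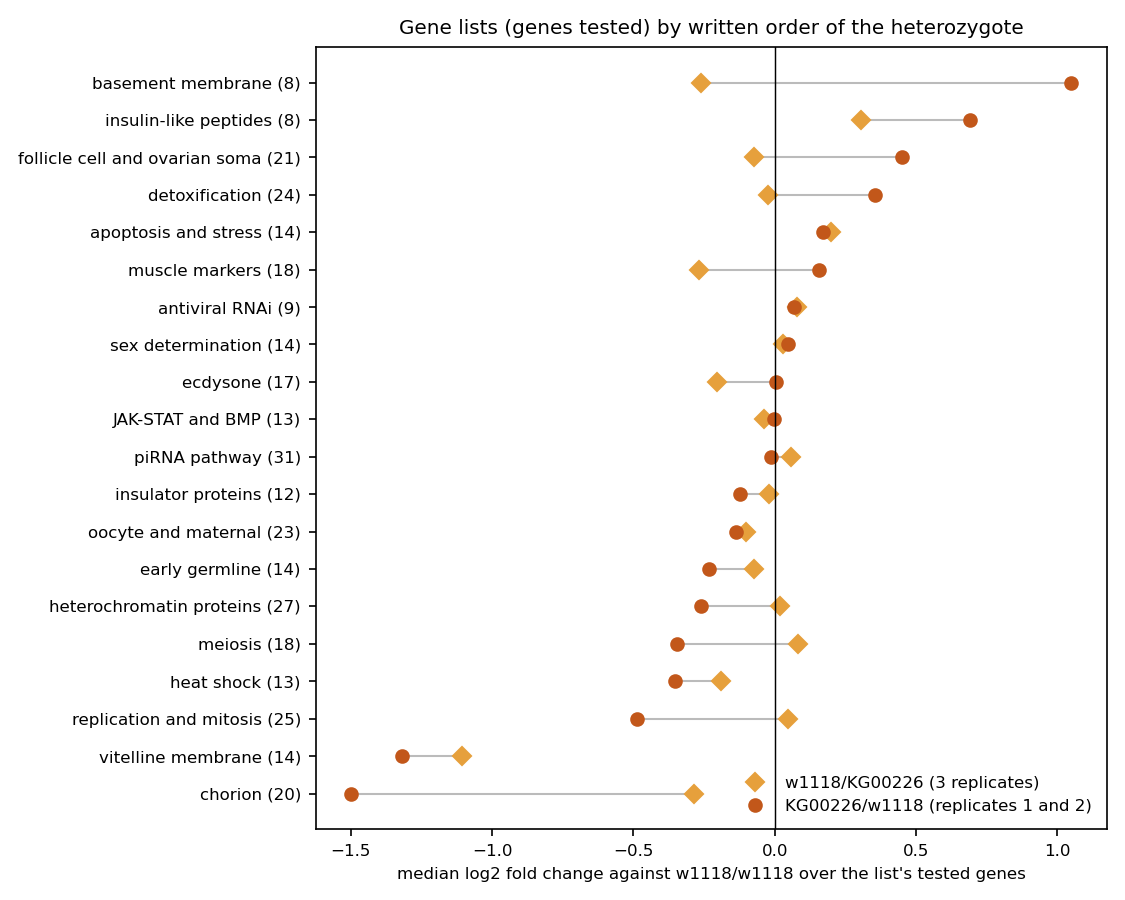
Median log2 fold change against w1118/w1118 of each gene list, for w1118/KG00226 (diamonds) and KG00226/w1118 (circles), with the number of genes tested in parentheses and a line joining the 2 values. The vitelline membrane list is low in both, and basement membrane, chorion, and replication and mitosis lists lie furthest apart.

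The KG00226 heterozygotes were also set against 7 other genotypes with a single sov allele or deficiency over w1118 (Dfsov/w1118, sovEA42/w1118, sovML150/w1118, NP6070/w1118, w1118/NP6070, sov2/w1118 and w1118/sov2; 20 libraries), which asks what sets this chromosome apart from other heterozygous controls. Of 7714 features, 1564 were higher in KG00226 heterozygotes (20.3%) and 1352 lower (17.5%), 37.8% in all. Including replicate 3 gave 1437 of 7703 higher (18.7%) and 1117 lower (14.5%), 33.2% in all. This comparison and that with w1118/w1118 share the KG00226 libraries, so each is given by its own values.

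All 15 of the largest rises over w1118/w1118 were also higher than in the other heterozygotes, where 20.3% of all features were higher. They were picked as high in the same KG00226 libraries, so this count is not independent of the first comparison. For 5 of them every other genotype's mean lay below the lowest KG00226 heterozygote library. The log2 difference was 9.01 for Hpd (edgeR adjusted p = 4.81e-12), 5.32 for y (9.37e-13), 5.25 for mthl8 (5.24e-08) and 1.99 for Culd (1.34e-07), whose other genotype means reached 57.6 CPM. An ABC transporter gene (identifier FBgn0010549, 2R:9390165-9395281) averaged 29.1 ± 7.18 CPM (SD, n = 5) in KG00226 heterozygotes, 5.93 ± 0.47 CPM (SD, n = 3) in w1118/w1118, and 1.47 to 7.03 CPM in the other genotypes (difference from those 3.40, edgeR adjusted p = 1.51e-16). CG43064 differed from them by 3.98 (2.01e-13). Drep1, an inhibitor of the apoptotic nuclease family, averaged 66.6 ± 7.67 CPM (SD, n = 5) in KG00226 heterozygotes and 11.4 ± 0.80 CPM (SD, n = 3) in w1118/w1118, but 15.6 to 75.1 CPM in other genotypes (1.09, edgeR adjusted p = 2.01e-13). Of the 15 largest falls, 11 were also lower than in the other heterozygotes, where 17.5% of all features were lower. These too were picked on the same KG00226 libraries.

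Named genes that were lower than in the other heterozygotes with the lowest p were Vm32E (-1.55, edgeR adjusted p = 5.84e-09), exu (-0.59, 1.02e-08), the zygotic genome activator zld (-0.74, 2.39e-08) and CG4586 (-0.61). Over all features in this comparison, 20.3% were higher and 17.5% lower. The vitelline membrane list had 4 higher and 8 lower of 14 (median -0.86), and the chorion list 4 higher and 5 lower of 20 (median -0.01). Replication and mitosis genes had 16 lower and none higher of 25, basement membrane genes 7 higher and none lower of 8 (median 0.52), and heterochromatin genes 3 higher and 14 lower of 27. With replicate 3 included, the chorion list had 3 higher and 2 lower, replication and mitosis 1 higher and 11 lower, and heterochromatin 3 higher and 8 lower. The shares over all features were then 18.7% higher and 14.5% lower. Element families had 6 higher and 7 lower of 55, and 7 higher and 0 lower of 64 with replicate 3. Gypsy12 was lower (-2.08 ± 0.18, edgeR adjusted p = 9.87e-09), but with replicate 3 included its difference was 0.34 (adjusted p = 0.743).

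Genes on chromosome 4, the small and largely heterochromatic autosome of the fly, leaned upward. Of 64 tested against w1118/w1118, 9 were higher (14.1%) and 1 lower (1.56%), with a median of 0.10. Over all features 8.46% were higher and 9.1% lower. In the fit with replicate 3, 4 of 63 were higher and 1 lower. Against the other heterozygotes, 26 of 65 were higher (40%) and 2 lower (3.08%), where 20.3% of all features were higher and 17.5% lower. The median was 0.17 with 52 of 65 above 0, and 26 were higher and 2 lower of 67 with replicate 3 included. The SKI-family repressor gene fuss had 44.9, 38.2, 38.3, 51.4 and 50.1 CPM in heterozygotes, against 17.4, 14.7 and 15.2 CPM in w1118/w1118 (1.47 ± 0.13, edgeR adjusted p = 1.36e-05). The library left out had 19 CPM of fuss, near the w1118/w1118 libraries and below the other heterozygotes. The Hedgehog pathway transcription factor ci had 46.8, 49.1, 34.5, 31.1 and 23.2 CPM in heterozygotes, against 13.6, 20.9 and 26.9 CPM in w1118/w1118 (0.90 ± 0.19, edgeR adjusted p = 0.00605), and overlapped in a single heterozygote library. The others higher were Cadps (1.52), asRNA:CR44029 (1.23), asRNA:CR44030 (1.12), apolpp (0.95), Pur-alpha (0.66), Tdg (0.46) and pan (0.45), and the gene lower was dati (-1.79 ± 0.23, 0.000299). In the library left out, dati (18 CPM), asRNA:CR44029 (4.41) and Pur-alpha (30.9) lay within the w1118/w1118 range, and apolpp (23.1) lay below it. Its levels of ci (37.65 CPM), Cadps (4.75), Tdg (105), asRNA:CR44030 (3.05) and pan (26.8) lay above all w1118/w1118 libraries. Between the written orders, 1 gene of chromosome 4 was higher and 2 lower of 64, where 6.78% of all features were higher and 5.14% lower. On the X, where sov lies, 103 of 1338 were higher (7.7%) and 164 lower (12.3%) than in w1118/w1118.

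**Figure D5:**
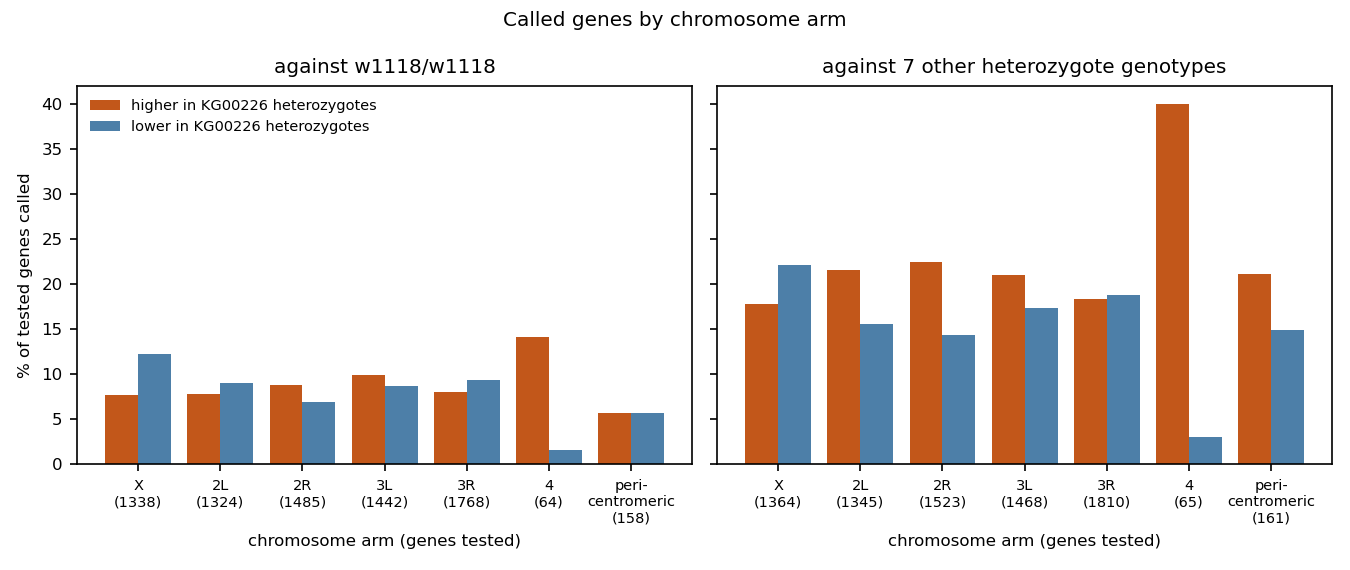
Percentage of tested genes called higher or lower in KG00226 heterozygotes on each chromosome arm and in pericentromeric regions, against w1118/w1118 (left) and against 7 other heterozygote genotypes (right), with genes tested in parentheses. Chromosome 4 has 14.1% higher and 1.56% lower on the left, and 40% higher and 3.08% lower on the right.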

How the data were processed

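Poly(A) RNA of ovaries was sequenced as 50 bp single-end stranded libraries. Tools named, without roles, by the submitters' processing notes are HTSeq 0.7.2, HISAT2 2.0.5 and CASAVA 1.8.2; mapping was to genome release 6.21 per the labels. The deposited values are whole-number counts of reads per gene, element family and ERCC spike-in, with no normalisation by the authors per the labels. Each library listed 17741 entries (17493 genes, 147 element families, 96 ERCC, 5 counting summaries). The summaries held 12.6% to 19.5% of reads of the 8 libraries and were left out of library sizes and tests. Symbols and positions were found for 17366 genes in a release 6 annotation.

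Counts were tested with edgeR 4.0.16 in R 4.3.3 (TMM, filterByExpr, quasi-likelihood F test, Benjamini-Hochberg adjustment over everything tested). The mean of both heterozygote labels was set against w1118/w1118 in a fit of 8 libraries, which also gave the difference between labels. The comparison with other heterozygotes used 28 libraries. A sov2/w1118 library of 2110 counts was left out. CPM was computed with TMM over 32 libraries. Standard errors are the log2 fold change divided by the square root of F. Each label had its own mean, so they and the p-values leave out the gap between the written orders. Element shares were compared by exact permutation. Alternatives were another scaling (RLE), DESeq2 1.42.0, no low-count filter, ERCC pool or replicate number as a covariate, each heterozygote label alone, both as a single group, all 10 control genotypes in the fit, and each library left out. On simulated counts for 7474 genes of the w1118/w1118 comparison, 89.8% of 98 genes changed 2-fold were recovered, and 13 unchanged genes were called. The simulation gave both heterozygote labels the same mean, unlike the libraries, so its recovery need not hold for them.

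Named genes were sov and its neighbours, y, w, the 15 largest rises and falls (adjusted p under 0.05, mean of at least 1 CPM, no overlap between groups), up to 4 called members of each list, called or telomeric element families, and the 5 lowest p in each direction of the other comparisons. Others are named as list or chromosome members. Members, lists and tests were chosen with earlier results of these data known, and replicate 3 of KG00226/w1118 was left out on a measured outcome. Floors cover counting error only. No pair of libraries had identical counts.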

Additional observations from a re-analysis of the deposited data

Results flagged for a closer look

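In the group of 6 heterozygote libraries, 41 values were examined for a library far from the others, and 9 were picked out, 8 of them in replicate 3 of KG00226/w1118. Chance picks out about 1 in 20 values, but replicate 3 was left out for its element reads, so its element values are only a description. That library had a transposable element share of 0.451%, HETA at 1490 CPM, MDG3 at 185 CPM, TART at 106 CPM, TAHRE at 104 CPM, MAX at 25.8 CPM, Gypsy at 5.09 CPM and Hsp70Ba at 22.4 CPM, each above the other 5 libraries. The ninth value was CG9380 in replicate 1 of KG00226/w1118, at 12 CPM, where the others held 4.73 to 6.36 CPM.

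The heterozygotes written in the 2 orders differed by the test of the difference itself in 900 genes and element families, although both labels name the same pair of X chromosomes. With replicate 3 of KG00226/w1118 included, 161 differed. The cause was not tested, and the labels do not say whether the order marks the parent of origin, a stock or a dissection.

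For scale, the HETA level of replicate 3 lies among the genotype means of KG00226/KG00226, sovML150/sov2 and sov2/KG00226 ovaries, which were 1785, 1814 and 1243 CPM, the second of which carries no KG00226 chromosome, on a scaling over all libraries in which replicate 3 itself held 1538 CPM. Its Gypsy12 level on that scaling, 1213 CPM, was far from the 129 CPM of KG00226/KG00226, and its MDG3 level, 191 CPM, was above the mean of every other genotype listed, the highest of which was 65.2 CPM in sovML150/KG00226.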

How the results depend on the processing

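The sov transcript passed the test in none of the alternatives run, with log2 fold changes of -0.14 (KG00226/w1118 alone) to 0.004 (w1118/KG00226 alone). The 1326 features that differed from w1118/w1118 became 584 with replicate 3 of KG00226/w1118, 305 with both orders as 1 group, 367 for w1118/KG00226 alone and 2031 for KG00226/w1118 alone. Leaving out 1 library gave 694 to 1574, with 694 without KG00226/w1118 replicate 2 and 796, 765 and 713 without w1118/w1118 replicate 1, 2 and 3. DESeq2 called 1122, RLE scaling 1317, and no low-count filter 1698. The 5 element families changed became 2 with replicate 3, 3 with both orders as 1 group, 1 for w1118/KG00226 alone, 9 for KG00226/w1118 alone, and 2 to 7 when a library was left out.

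The 900 features that differed between the orders became 161 with replicate 3, 1361 with no low-count filter and 785 with DESeq2. Leaving out 1 library gave 165 to 1755: 351 and 165 without KG00226/w1118 replicate 1 and 2, and 1755, 483 and 358 without w1118/KG00226 replicate 1, 2 and 3. The 2916 features that differed from other heterozygotes ran from 1962 to 2932 when a library was left out. Replicate numbers did not pair the samples (correlations of same-numbered libraries -0.148 to 0.146). A replicate block gave 971 against w1118/w1118, 486 between orders and 2738 against other heterozygotes.

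For w1118/KG00226 alone the sign turned for twe (0.058), mtrm (0.019), ncd (0.023), CycE (0.064), Cdc6 (0.014), LanA (-0.15), LanB2 (-0.34), LanB1 (-0.27) and trol (-0.25), none of which passed there. LManII turned for KG00226/w1118 alone (0.12), and Gypsy12 against the other heterozygotes with replicate 3 (0.34). Of named values against w1118/w1118, 1739 kept direction and call across alternatives, 338 lost the call, 3 gained it and 10 changed sign. The element share difference of 0.22 was 0.82 with replicate 3 and 0.12 to 0.37 when a library was left out (0.37 without w1118/w1118 replicate 3, exact permutation p = 0.0476). Element counts per ERCC count, which are not a share, differed by 0.94 (exact permutation p = 0.0357), in a test that did not take the ERCC pool into account. Gene counts per ERCC count were 7161 to 12459 in heterozygotes and 3113 to 7423 in w1118/w1118. The causes were not tested. Low-count families and genes under a few CPM limit the element and immune results.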
